A study of Homo sapiens with 12 samples.

Results

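Ribosome profiling of unperturbed HepG2 cells was used to ask which mRNAs carried many and which carried few ribosomes for their abundance. The comparison set 3 libraries of ribosome-protected fragments (RPF) against 3 libraries of Input RNA, all from HepG2 cells transfected with a control siRNA (siControl, labelled as the control knockdown). The genes described are the protein-coding genes of GENCODE release 44 with a mean of at least 5 CPM (read counts scaled to the library total) in siControl Input. There were 10128 such genes of 19850 protein-coding genes and 58721 genes in all. HepG2 is a human hepatocellular carcinoma line, so each group is 1 line and not liver tissue. By the labels, which carry 1 protocol for both kinds of library, cells were held in 100 µg/mL cycloheximide for 4 min, 2 days after transfection. No library of the IGF2BP3 knockdown was used.

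A translating ribosome shields a short stretch of its mRNA from nuclease, and the shielded fragments (here 28 to 30 nt) can be sequenced and assigned to genes. Dividing the footprints of a gene by its RNA level gives a relative measure of how densely its mRNA is occupied, usually called translation efficiency. The measure is set by how often ribosomes start, how fast they move, and how much of the counted RNA is available to them. Sequences of the 5′ UTR are the best known source of differences between mRNAs: pyrimidine tracts at the cap, iron-responsive hairpins and upstream start codons all act there.

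Input libraries held between 12513626 and 14797573 counts and RPF libraries between 21336286 and 31510601. RPF replicates 2 and 3 differed by less than sampling noise over all genes (mean chi-square per gene 0.941, against 2.09 to 2.80 for the other RPF pairs). Over the described genes alone the value was 1.09, against 1.72 and 2.04 for the other RPF pairs. RPF replicates 2 and 3 were counted as 1 sample. Means are therefore of 3 Input libraries and 2 RPF samples. The labels do not say that replicates came from separate cultures, so p-values measure the spread between these libraries only. All 10 hepatocyte and HepG2 markers were above the minimum in Input, from 110 CPM for FOXA2 to 22272 CPM for APOB. The immune genes PTPRC and CD3E were at 0 in Input, the 3 endothelial markers were between 0.590 and 1.48 CPM, and COL1A1, COL1A2 and DCN were at or under 0.215 CPM. The macrophage-associated gene CD68 (23.0 CPM), PDGFRB (7.71 CPM) and the duct-associated genes KRT19 (566 CPM) and SOX9 (283 CPM) were detected. KRT7, also duct-associated, stood at 0.0531 CPM. Protein-coding genes took 96.6% of Input counts in each library and 86.0% to 86.2% of RPF counts.

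The RPF/Input ratio differed widely between mRNAs of the same cells. Ratios are given as log2 values after the median of the 10128 genes was set to 0, so a high or low ratio is relative to the typical mRNA and says nothing of the absolute rate. CPM are printed without this scaling (the median gene had a log2 ratio of plain CPM of −0.23), and whether groups overlap is judged after it. The middle 50 percentiles ran from −0.96 to 0.88, and the 5th and 95th percentiles were −2.52 and 2.04, a span of 23.6-fold. By edgeR's quasi-likelihood test with Benjamini-Hochberg adjustment, 9219 genes (91.0%) had an adjusted p under 0.05. With an additional minimum of 2-fold, 2230 genes had a high ratio and 2438 a low ratio. This balance follows from the centring: with TMM factors and no centring 1812 were high and 2826 low, and with library totals 1677 and 2970. With the centring the background is 22.0% high and 24.1% low among these genes (43.9% and 21.6% among all 20517 genes of any type that were tested). In each of the 2230 and 2438 genes, all 3 RPF libraries lay on the same side of all 3 Input libraries after scaling. The spread between libraries was small beside these differences: the median SD was 5.4% of the mean in Input (n = 3) and 2.42% in RPF (n = 2). Genes at the edge of the 5 CPM minimum were not alike. ZSCAN25, AGBL3 and RGPD2, just inside it, had log2 ratios of 1.37, −0.74 and 1.60, and ZNF222, VPS33B and ZNF408, just outside it, had −1.18, 1.09 and 1.64.

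**Figure D1:**
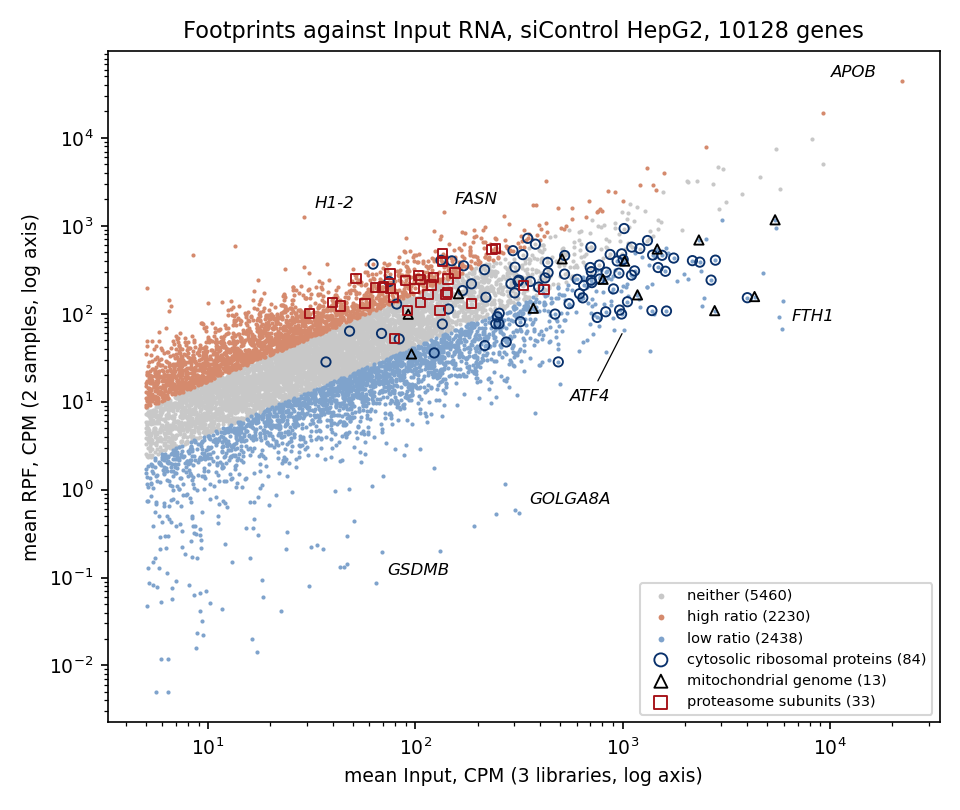
Mean RPF level against mean Input level in CPM (both axes log) for the 10128 genes, coloured by call, with 84 ribosomal protein genes, 13 mitochondrial genome genes and 33 proteasome genes outlined. Of the proteasome genes 23 are high and 0 low, and of the ribosomal protein genes 7 are high and 42 low; the 2 genes under 0.005 CPM in RPF are drawn at 0.005.

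The deposited counts are partly fractional, for a reason that the sources used here do not state, and 1832 of the 10128 genes had whole-number counts in all 6 libraries. Among those 1832 genes, 384 had a high ratio (20.96%) and 445 a low one (24.29%), beside 22.0% and 24.1% over all genes. Counts cover all exons, while footprints come from the coding sequence and Input reads from the whole transcript. A second value, with RPF counts set against coding length and Input counts against transcript length, is called the coding length offset. It moved the median of 25 of the 30 gene lists described here by more than 1 SD over pairs of samples, and is given where it turned a list's median or changed it by more than 1.5 times. It turned the sign of 33 of 211 named genes, 26 of which were neither high nor low in either setting.

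The 10 highest ratios among genes of at least 20 CPM in Input belonged to H1-2, MT1E, FASN, PRDX2, WDR74, HYOU1, APRT, UBL5, GPC3 and ESYT1. H1-2, a linker histone gene (chr6:26055787-26056428), had 28.0, 29.8 and 29.4 CPM in the Input libraries and 1290, 1239 and 1278 CPM in the RPF libraries, a 51.5-fold high ratio (log2 5.69 ± 0.05 SE). FASN, fatty acid synthase (chr17:82078333-82098332), had 149, 124 and 139 CPM in Input and 1427, 1402 and 1427 CPM in RPF, a 12.2-fold high ratio (log2 3.61 ± 0.06 SE, adjusted p = 1.48e-16). GPC3, the oncofetal glypican of liver cancer cells, was the most abundant of the 10 with 426 ± 19.9 CPM in Input (SD, n = 3) and 3202 ± 65 CPM in RPF (SD, n = 2), a log2 ratio of 3.15. Of the others, PRDX2 is an abundant cytosolic peroxiredoxin, HYOU1 a chaperone of the endoplasmic reticulum and APRT an enzyme of purine salvage. WDR74 (log2 3.47) overlaps RNU2-2P on the same strand, and the part of that gene in its ratio was not tested.

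Lower ratios than these exist outside the limits used for naming: a symbol, at least 20 CPM in Input and separated libraries. Within those limits, the 10 lowest were NPIPB12, GSDMB, GOLGA8A, GOLGA8B, NPIPA7, NPIPB3, NPIPB4, NPIPB13, NPIPA5 and NPIPA9. They had between 22.4 and 317 CPM in Input and between 0.0420 and 0.581 CPM in RPF, which are 3.13 to 43.8 counts over all RPF libraries, so counting error is large and their order is not settled. NPIPB12 (chr16:29483642-29505999) had 135, 127 and 133 CPM in Input and 0.197, 0.211 and 0.191 CPM in RPF, a log2 ratio of −9.17 ± 0.11 SE. GSDMB, a gasdermin gene (chr17:39904595-39919854), had 57.5, 69.8 and 67.6 CPM in Input and 0.0317, 0.188 and 0.0937 CPM in RPF, a log2 ratio of −9.12. NPIP and GOLGA8 are families of near-identical duplicated genes: all 14 NPIP genes here had a low ratio, with a median of −8.06, as had both GOLGA8 genes. None of these 16 genes had whole-number counts in all libraries. With 0.5 CPM added to both levels, the NPIP median was −5.88 to −5.72 over pairs of libraries. Its size therefore depends on how values near 0 are treated. How reads that fit several copies were shared out is not stated, and their part in these ratios was not tested. The symbol NPIPA9 stands for a pair of gene models, and the value used for the order is that of chr16:18358086-18379331; the other model stood at −6.61.

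Among the genes with whole-number counts, which were singled out after the values had been seen, the range was narrower. With at least 20 CPM in Input, the 10 highest were CLPTM1, COCH, SF3B5, GLB1, SNX17, RBP4, TTC38, STOML2, YIPF3 and LRRC41, with log2 ratios from 2.43 to 2.88. CLPTM1, a membrane protein gene, had 22.8, 23.7 and 23.0 CPM in Input and 145, 147 and 144 CPM in RPF. The 10 lowest were CAPN12, PABPC1L, ONECUT2, FILIP1L, ZNF704, KIFC2, KIAA2026, RFLNB, HIVEP2 and GPAM, from −7.11 to −4.03. CAPN12, a calpain gene, had 35.8, 34.8 and 37.1 CPM in Input and 0.190, 0.141 and 0.328 CPM in RPF. GPAM, the mitochondrial acyltransferase that begins glycerolipid synthesis, had 299, 268 and 279 CPM in Input and 14.03, 14.11 and 16.02 CPM in RPF, a 16.4-fold low ratio (log2 −4.03 ± 0.06 SE). With the coding length offset ONECUT2, ZNF704 and RFLNB moved to −2.72, −2.21 and −2.27 while the other 7 stayed at or below −3.89.

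Gene classes differed in their typical ratio, and 30 lists of genes with a shared function or name were compared with the median of 0 over all genes. The range over the 9 pairs of 1 RPF and 1 Input library, computed on CPM with a pseudocount of 0.5 and centred on the pair's own median, is given beside a median; it can leave out the fitted median, which has no such pseudocount. As counted, at the upper end stood replication-dependent histones and metallothioneins, followed by proteasome subunits, replication and cell cycle genes, lipid synthesis enzymes and the secretory machinery. At the lower end stood elongation factors and related 5′TOP mRNAs, the mitochondrial genome, ribosomal proteins and zinc finger genes.

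**Figure D2:**
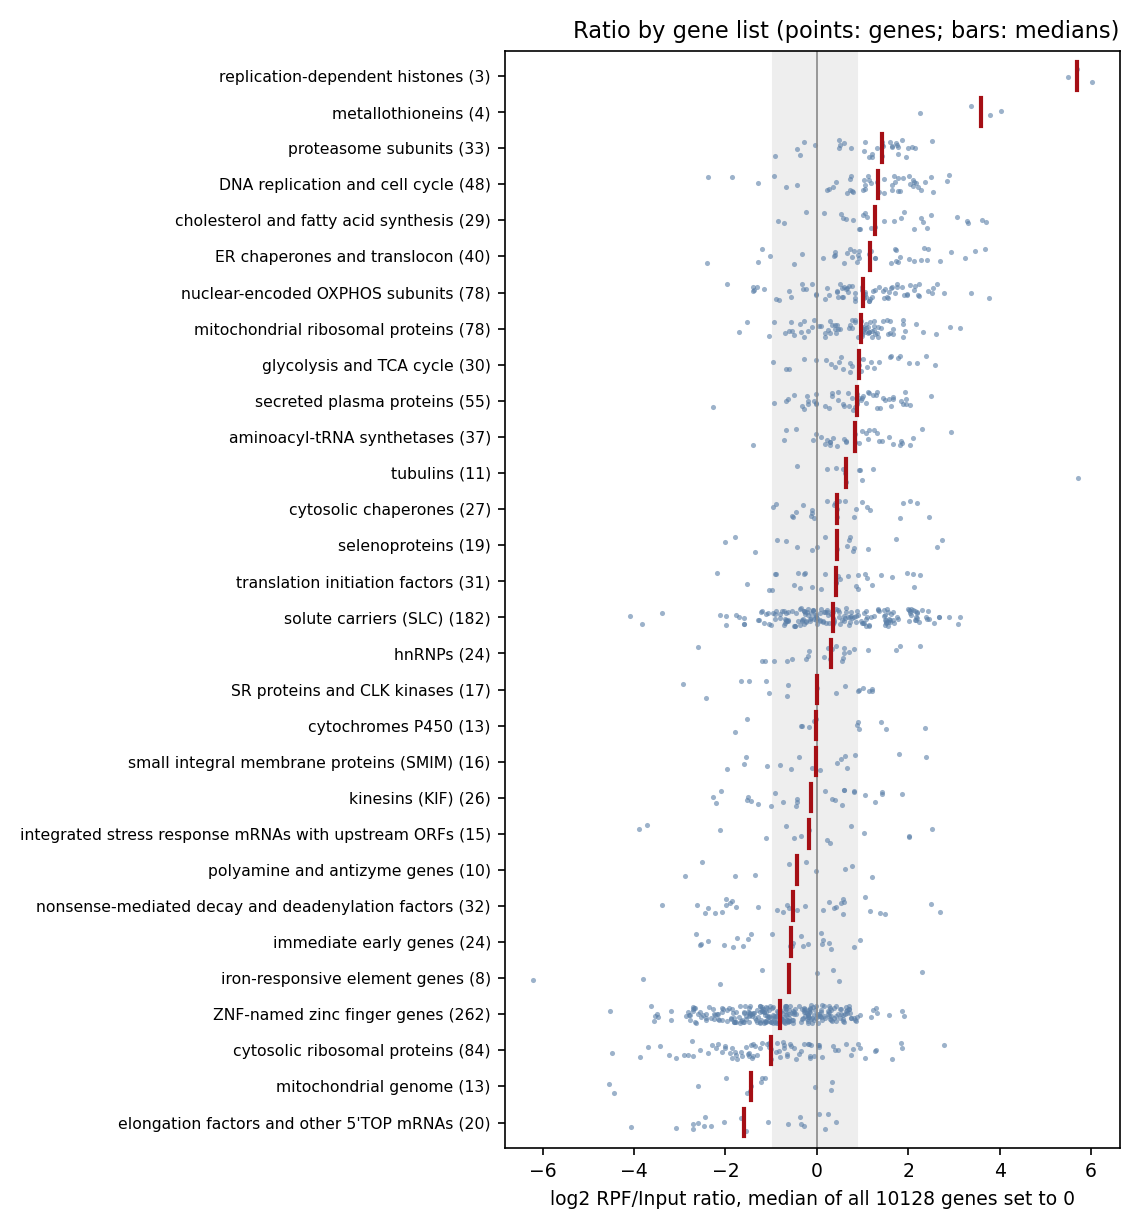
Log2 RPF/Input ratio of each gene (points) in 30 gene lists, ordered by their medians (bars), with the number of genes in brackets; the grey band is the interquartile range of all 10128 genes, −0.96 to 0.88. List medians run from 5.69 for 3 histone genes to −1.60 for elongation factors and other 5′TOP mRNAs.

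Metallothioneins are small cysteine-rich proteins that bind zinc and copper. Of 8 listed genes 4 passed the Input minimum, and all 4 had a high ratio, with a median of 3.58 (library pairs 3.43 to 3.60). MT2A was the most abundant, with 66.7, 62.5 and 57.6 CPM in Input and 260, 238 and 259 CPM in RPF, and a log2 ratio of 2.26. MT1G had 19.7, 16.5 and 16.3 CPM in Input and 243, 238 and 249 CPM in RPF, a ratio of 4.04, and MT1X stood at 3.38. None of the 4 had whole-number counts in all libraries. Under the minimum, MT1H had 0 CPM in Input and 20.7 CPM in RPF, and MT1M 0.411 and 14.6 CPM. MT1A had 3.62 and 29.7 CPM, and MT1F 4.16 and 85.3 CPM. How reads that fit several of these genes were shared out is not stated, and their part in the metallothionein ratios was not tested. Histones of the replication-dependent clusters, whose mRNAs end in a stem-loop instead of a poly(A) tail, had only 3 of 62 listed genes above the Input minimum. These were H1-2, H2BC15 (log2 ratio 5.50) and H2AC6 (6.02), the last with 8.07, 8.65 and 8.65 CPM in Input against 465, 467 and 467 CPM in RPF. The median of the 3 was 5.69, and 4.79 with the coding length offset. How the Input RNA was selected is not given in the sources used here, and its part in these ratios was not tested. Metallothionein and histone transcripts are short, with median annotated transcripts of 407 and 542 bases against 3380 over all genes.

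Proteasome subunits form the barrel and cap that degrade ubiquitinated proteins. Their 33 genes had a median log2 ratio of 1.42 (library pairs 1.32 to 1.43), with 23 high and 0 low. The 14 core genes (PSMA and PSMB) stood at a median of 1.59 with 12 high, and the 19 cap genes at 1.20 with 11 high. PSMB4 (chr1:151399534-151401944) had 57.7, 51.3 and 46.4 CPM in Input and 253, 249 and 260 CPM in RPF, the highest ratio of the list at 2.53 ± 0.06 SE. PSMD7, the lowest, had 418 ± 19 CPM in Input (SD, n = 3) and 189 CPM in RPF, a ratio of −0.91. PSMA6 stood at −0.43 as deposited and at 0.35 with the counts of its 4 named pseudogenes added. With the coding length offset the list median was 0.60, with 10 high and 3 low.

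Genes of DNA replication and the cell cycle had a median of 1.33 (library pairs 1.31 to 1.39), with 32 of 48 high and 3 low. All 6 subunits of the MCM helicase, which unwinds DNA at replication forks, had a high ratio, from 1.46 for MCM3 to 2.90 for MCM2, and with the coding length offset MCM3, at 0.58, was no longer high. MCM2 had 31.7, 29.7 and 30.2 CPM in Input and 193, 194 and 193 CPM in RPF. The proliferation marker MKI67 lay at the opposite end, with 538, 491 and 535 CPM in Input and 85.3, 87.6 and 82.4 CPM in RPF, a 5.20-fold low ratio (log2 −2.38). CDK6 stood at −1.85 as counted and 0.51 with the coding length offset, which reversed its direction. TOP2A, the most abundant of the list with 1338 CPM in Input, had −0.68.

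Enzymes of cholesterol and fatty acid synthesis, a pathway under SREBP control and prominent in hepatocytes, had a median of 1.28 (library pairs 1.19 to 1.34). Of 29 genes 19 had a high ratio and 0 a low one. DHCR7, the last enzyme of cholesterol synthesis, had 15.5, 16.8 and 17.5 CPM in Input and 185, 177 and 184 CPM in RPF, a ratio of 3.69 ± 0.06 SE from whole-number counts. SCD, the desaturase with the highest Input level (1937 ± 71 CPM, SD, n = 3), stood lowest at −0.86 (0.21 with the coding length offset), and HMGCS1 at 0.53. The list kept a median of 1.09 with the coding length offset, with 15 high and 0 low.

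Components of the secretory pathway also stood high. ER chaperones, the translocon and its partners had a median of 1.16 (library pairs 1.08 to 1.19), with 21 of 40 high and 4 low. HSPA5, the chief Hsp70 chaperone of the ER (BiP), had 1240, 1381 and 1328 CPM in Input and 4496, 4545 and 4555 CPM in RPF, a 4.04-fold high ratio (log2 2.01 ± 0.05 SE). SDF2L1 was highest at 3.67, CALR stood at 1.27 and HSP90B1 at 0.36, which the coding length offset turned to −0.64. SEC62, a translocon partner, was lowest at −2.41, with 533, 503 and 554 CPM in Input and 84.9, 85.9 and 83.99 CPM in RPF. Secreted plasma proteins, the main export of hepatocytes, had a median of 0.87 (library pairs 0.81 to 0.91), with 22 of 55 high and 1 low. APOB, the structural protein of very low density lipoprotein, took 22272 ± 858 CPM of Input (SD, n = 3) and 44104 ± 499 CPM of RPF (SD, n = 2), a log2 ratio of 1.22. ALB had 9241, 9339 and 9225 CPM in Input and 19068, 19921 and 19806 CPM in RPF, a ratio of 1.31. RBP4, the retinol carrier, was highest at 2.50, and the complement factor CFB was the single low gene at −2.27, although CFB overlaps C2 on the same strand. Plasma protein mRNAs are mostly coding sequence (median 79.6% of the transcript, against 48.9% over all genes). With the coding length offset their median was 0.04, with 9 high and 7 low.

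Nuclear genes for mitochondrial proteins stood above the median as well. Subunits of oxidative phosphorylation had a median of 1.01 (library pairs 0.98 to 1.05), with 41 of 78 high and 6 low. Complex I (1.13, 37 genes) and the ATP synthase (1.17, 17 genes) were higher than complex III (0.58, 9 genes) and complex IV (0.64, 10 genes), an order that with the coding length offset became 0.98, 1.12, 1.27 and 1.04. COX8A had 12.6, 11.3 and 11.2 CPM in Input and 138, 132 and 135 CPM in RPF, a ratio of 3.77. COX7C, of the same complex, had 524, 581 and 590 CPM in Input and 123, 119 and 124 CPM in RPF, a ratio of −1.98. Mitochondrial ribosomal proteins had a median of 0.98 with 37 of 78 high and 3 low, from 3.13 for MRPS2 to −1.70 for MRPS6. Glycolysis and TCA cycle enzymes had 0.92 with 13 of 30 high and 0 low. Among them OGDH stood at 2.58, ENO1 at 0.73, PDHA1 at −0.97 and GAPDH at −0.67, the last moving to 0.18 with 65 named pseudogenes added. The list median was 0.52 with the coding length offset, with 9 high and 2 low, and ENO1 then stood at −0.04.

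The mitochondrial genome itself stood low. Its 13 protein genes are translated by mitochondrial ribosomes inside the organelle. Whether cycloheximide and the choice of 28 to 30 nt fragments capture these ribosomes as they do cytosolic ones was not tested. The ratios of these genes may therefore not be on the same scale as those of nuclear genes. The median of the 13 genes was −1.45 (library pairs −1.49 to −1.35), with 10 low and 0 high. MT-ND4 had 4264, 4345 and 4388 CPM in Input and 157, 158 and 156 CPM in RPF, a 23.4-fold low ratio (log2 −4.55 ± 0.06 SE), and MT-ND2 stood at −4.44. MT-CO1, the most abundant, had 5442 ± 21 CPM in Input (SD, n = 3) and 1172 ± 52 CPM in RPF (SD, n = 2), a ratio of −1.98. MT-ND1 stood at −2.61, MT-ND5 at −1.52, MT-ATP6 at −1.47, MT-ATP8 at −1.45, MT-ND4L at −1.22, MT-CYB at −1.19 and MT-CO2 at −1.13. The remaining 3 were not low: MT-CO3 (−0.04) had overlapping scaled values, and MT-ND3 and MT-ND6 stood at 0.30 and 0.34. Under the coding length offset these 3 became −1.26, −0.91 and −0.88, and the list median −2.66 with 11 low. The annotated transcripts of all 13 genes are 100% coding sequence, so the offset moved them together, through the centring alone. MT-ND6, the 1 gene of the light strand, had 93.1, 87.2 and 97.1 CPM in Input and 95.6, 105 and 99.4 CPM in RPF. MT-ATP6 overlaps MT-ATP8 and MT-CO3, and MT-ND4 overlaps MT-ND4L.

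Translation machinery was split between parts with low and with high ratios. mRNAs of ribosomal proteins and elongation factors begin with a terminal oligopyrimidine (5′TOP) tract, a cytosine at the cap followed by pyrimidines, through which mTOR signalling and LARP1 control their translation. The first 25 bases of the annotated canonical transcripts (GENCODE release 44, hg38) are shown for EEF1A1, RPL13A and RPLP0, which had low ratios, for EEF2, which did not, and for FASN, TFRC and PSMB4, which had high ratios. Capitals mark the unbroken run of pyrimidines that starts with a cytosine at the first base.
EEF1A1 (chr6:73521008-73521032, minus strand): CTTTTTCgcaacgggtttgccgcca
RPL13A (chr19:49487608-49487632, plus strand): CTTTTCCaagcggctgccgaagatg
RPLP0 (chr12:120201087-120201111, minus strand): CCTTCTCTCgccaggcgtcctcgtg
EEF2 (chr19:3985439-3985463, minus strand): CTCTTCCgccgtcgtcgccgccatc
FASN (chr17:82098212-82098236, minus strand): gagccagagagacggcagcggcccc
TFRC (chr3:196082066-196082090, minus strand): agagcgtcgggatatcgggtggcgg
PSMB4 (chr1:151399573-151399597, plus strand): gctaccgtgactaagatggaagcgt
A tract of a cytosine and at least 4 more pyrimidines stood at the annotated start of 62 of the 84 ribosomal protein mRNAs (73.8%) and of 17 of 20 elongation factor and other 5′TOP mRNAs, against 5.82% of all 10128 genes and 4.63% of all protein-coding genes. The search covered the transcript strand and the first base of 1 annotated transcript a gene, so an annotated start that is off by a base is read as no tract. The genes shown are examples, and a tract was not confined to genes with low ratios. RPL30, not shown, has a tract of 8 bases and the highest ratio of the ribosomal protein genes, 2.79.

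Elongation factors and other 5′TOP mRNAs had the lowest median of all lists as counted, −1.60 (library pairs −1.70 to −1.49), with 12 of 20 low and 0 high. The mitochondrial genome was lower with the coding length offset (−2.66 against −1.33) and with pseudogene counts added (−1.48 against −0.82). For the mitochondrial genome that offset acts through the centring alone. EEF1A1, which brings aminoacyl-tRNA to the ribosome, had 5322, 5749 and 5336 CPM in Input and 934, 940 and 952 CPM in RPF, a 4.95-fold low ratio (log2 −2.31 ± 0.06 SE). HNRNPA1 was lowest, with 2273, 2451 and 2533 CPM in Input and 122, 123 and 121 CPM in RPF (log2 −4.07). The annotated transcript of HNRNPA1 does not begin with a tract. EEF2, the translocation factor, had the highest ratio at 0.42, with 1002, 1080 and 1060.5 CPM in Input and 1191, 1199 and 1197 CPM in RPF. EEF2 overlaps SNORD37 on the same strand. Its tract is as long as that of EEF1A1, and as counted its ratio lay on the other side of the median, but with the coding length offset both lay below it, at −0.50 and −2.18. EEF2 has no named pseudogene, while EEF1A1 has 49 and HNRNPA1 74. With pseudogene counts added EEF1A1 moved to −0.17 and HNRNPA1 to −1.66, and the list median to −0.82 with 8 low.

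The 84 cytosolic ribosomal proteins had a median log2 ratio of −1.001 (library pairs −1.11 to −0.92), with 42 low and 7 high. RPL13A (chr19:49487554-49492308) was lowest and the most abundant, with 3783, 4159 and 4053 CPM in Input and 150, 153 and 156 CPM in RPF, a 22.3-fold low ratio (log2 −4.48 ± 0.07 SE). RPL19 had 2805 ± 119 CPM in Input (SD, n = 3) and 407 ± 2.11 CPM in RPF (SD, n = 2), a ratio of −2.55. RPL30 was highest, with 64.8, 61.8 and 61.1 CPM in Input and 362, 373 and 371 CPM in RPF (log2 2.79 ± 0.05 SE). Small subunit proteins had a median of −0.73 (34 genes) and large subunit proteins −1.03 (50 genes). The 62 genes with a tract had a median of −0.89, with 29 low and 7 high. The 22 without one had −1.42, with 13 low and 0 high. With pseudogene counts added the 2 medians were −0.18 and −0.38. Over the 527 other genes with a tract the median was −0.09, with 20.3% high and 28.3% low.

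Adding the counts of pseudogenes moved the ribosomal protein ratios more than the other settings tried. Of the 84 genes 80 have pseudogenes named after them, 1601 in all, and these took 5.25% of the family's Input counts but 36.3% of its RPF counts. With the pseudogene counts added to the parent genes the median was −0.18, with 23 low and 12 high. RPL13A then stood at −2.47 and RPL19 at −2.25, both still low. RPL30 moved to 2.97. The median of small subunit genes became 0.13 and that of large subunit genes −0.49. The 4 genes without a named pseudogene (median 0.24, and 0.57 with the coding length offset) included 1 low gene and 0 high ones. The adding was chosen after the data had been seen, it puts genuine pseudogene transcripts onto the parent, and neither value can be taken as the true ratio.

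**Figure D3:**
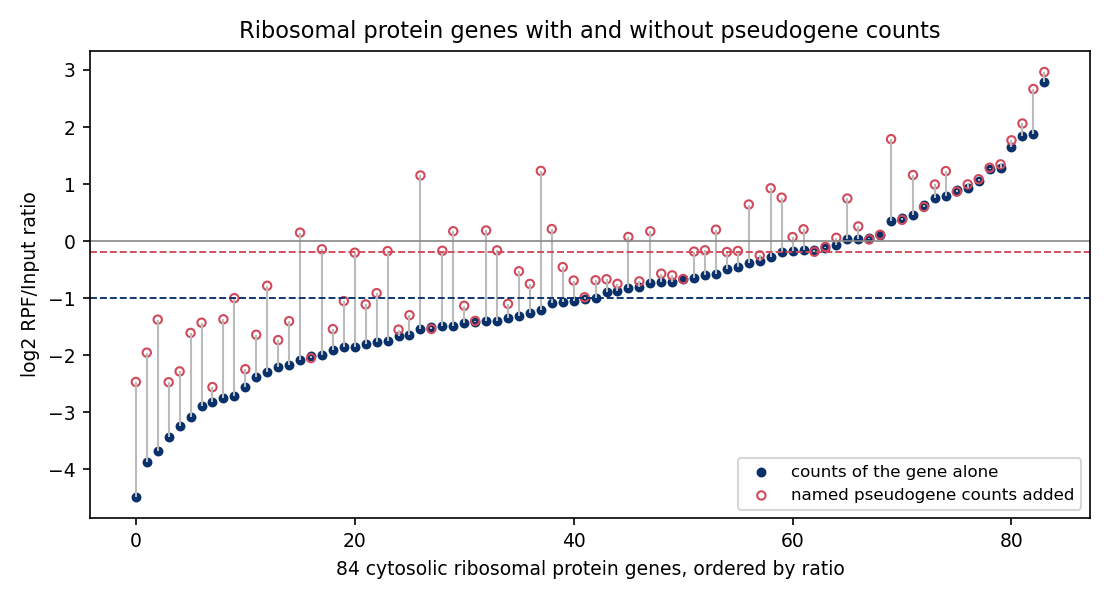
Log2 RPF/Input ratio of the 84 cytosolic ribosomal protein genes, ordered by ratio, from the counts of the gene alone (filled) and with the counts of its named pseudogenes added (open); dashed lines are the medians, −1.001 and −0.18. Most low genes move up when pseudogene counts are added, and the lowest, RPL13A, moves from −4.48 to −2.47.

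Initiation factors and tRNA synthetases did not share the low ratios. Initiation factors had a median of 0.42 with 9 of 31 high and 3 low, and with the coding length offset 0.16 with 13 high and 8 low. EIF6, which keeps the large subunit from joining, was highest at 2.25. EIF5B, the subunit joining GTPase, had 1019, 922 and 1016 CPM in Input and 194, 172 and 175 CPM in RPF, the lowest ratio at −2.19. EIF2S2, a subunit of eIF2, stood at −1.52 and at −0.64 with pseudogenes added. Aminoacyl-tRNA synthetases had a median of 0.83 with 16 of 37 high and 1 low, from 2.94 for MARS2 to −1.40 for CARS1. The 16 mitochondrial enzymes had 1.33 and the 21 cytosolic ones 0.63. With the coding length offset the medians were 0.54 and −0.42, and that of the whole list was near 0. Coding sequence made up a median of 64.7% and 84.3% of these transcripts. Cytosolic chaperones had 0.44 with 7 of 27 high and 0 low, where HSPA8 stood at 2.45 and HSP90AB1, HSP90AA1 and DNAJB6 at −0.89, −0.52 and −0.96. The coding length offset turned that median to −0.15, with 3 high and 4 low.

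Iron genes stood on both sides of the range. Iron regulatory proteins bind a hairpin, the iron-responsive element, in the 5′ UTR of ferritin mRNAs and block their translation when iron is scarce, and bind such hairpins in the 3′ UTR of the transferrin receptor mRNA and stabilise it. FTH1, the ferritin heavy chain (chr11:61959718-61967660), had 6252, 5517 and 5767 CPM in Input and 67.0, 68.2 and 67.3 CPM in RPF, a 73.7-fold low ratio (log2 −6.20 ± 0.07 SE, adjusted p = 6.44e-18). FTL, the light chain (chr19:48965301-48966878), had 5057, 4527 and 4654 CPM in Input and 285, 291 and 297 CPM in RPF, a 13.9-fold low ratio (log2 −3.80). Input and RPF values were far apart in all libraries. FTH1 overlaps BEST1 on the opposite strand. It has 25 named pseudogenes and FTL 16, and with their counts added the ratios were −4.72 and −3.43. SLC40A1, the iron exporter ferroportin, which also has a 5′ element, had 47.2, 44.9 and 45.1 CPM in Input and 8.997, 8.718 and 8.808 CPM in RPF, a ratio of −2.13, and has no named pseudogene. EPAS1, which also has a 5′ element, stood at 0.00 with overlapping values and had no settled direction. Among the genes with a 3′ element TFRC, the transferrin receptor (chr3:196027183-196082189), had 226, 211 and 204 CPM in Input and 890, 903 and 897 CPM in RPF, a 4.94-fold high ratio (log2 2.30 ± 0.05 SE). SLC11A2 stood at 0.36 and CDC14A at −1.21. Of the 8 genes 4 were low and 1 high. Iron in the medium or cells was not measured.

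**Figure D4:**
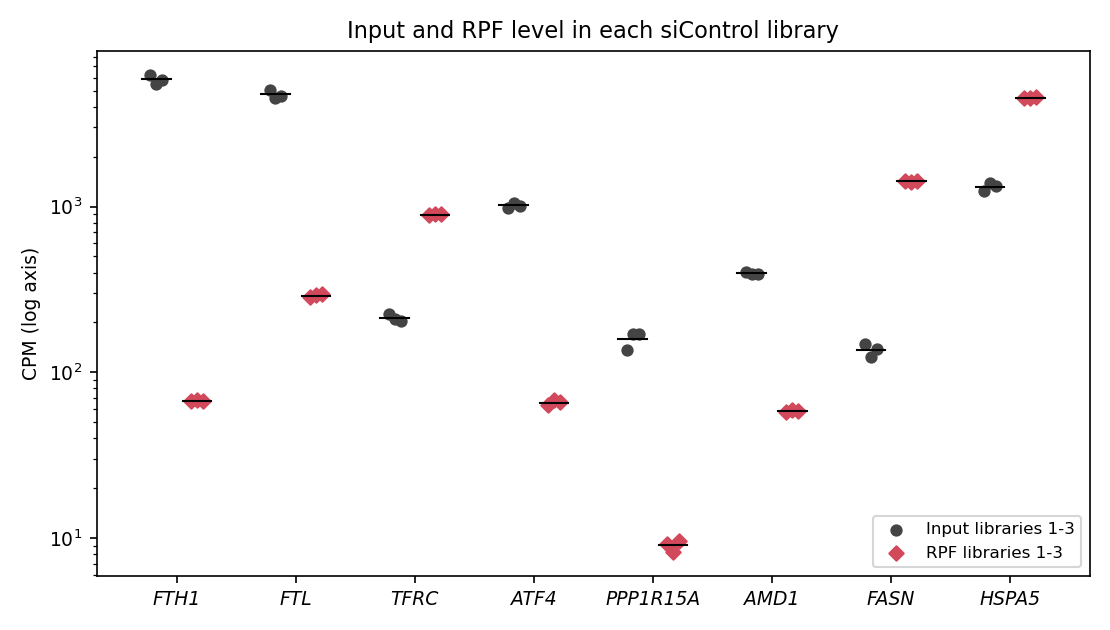
CPM (log axis) of 8 genes in the 3 Input libraries (circles) and the 3 RPF libraries (diamonds) of siControl cells, with black bars at the mean of 3 Input libraries and of 2 RPF samples. FTH1, FTL, ATF4, PPP1R15A and AMD1 lie far lower in RPF than in Input, and TFRC, FASN and HSPA5 lie higher, with no overlap between the groups.

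Integrated stress response mRNAs, which are known for upstream start codons, stood on both sides of the median. Of 15 genes 4 were low and 4 high (26.7% each), close to the background of 24.1% and 22.0%. An upstream ATG can capture the scanning ribosome before the main start codon, and in ATF4 and its relatives this holds translation down until eIF2 is phosphorylated under stress. Stretches of 21 bases around these codons are shown for 3 of the 4 low stress response mRNAs and for AMD1, whose upstream frame senses polyamines, with HSPA5, which has no upstream ATG in its annotated 5′ UTR, beside them. Sequences are of the canonical transcripts of GENCODE release 44 on hg38, and capitals mark the start codon.
ATF4 upstream ATG at −258 from the main start (chr22:39520577-39520597, plus strand): cgcccacagATGtagttttct
ATF4 upstream ATG at −196 (chr22:39520639-39520659, plus strand): acggccaccATGgcgtattag
ATF4 main start (chr22:39521437-39521457, plus strand): caccgcaacATGaccgaaatg
PPP1R15A upstream ATG at −206 (chr19:48872446-48872466, plus strand): gttgatcttATGcaagacgct
PPP1R15A upstream ATG at −107 (chr19:48872545-48872565, plus strand): gagggtgagATGaacgcgctg
PPP1R15A main start (chr19:48873225-48873245, plus strand): cccagacacATGgccccaggc
DDIT3 upstream ATG at −143 (chr12:57520469-57520489, minus strand): gagcgtatcATGttaaagatg
DDIT3 upstream ATG at −134 (chr12:57520460-57520480, minus strand): atgttaaagATGagcgggtgg
DDIT3 main start (chr12:57517395-57517415, minus strand): actgcagagATGgcagctgag
AMD1 upstream frame from start to stop, at −310 (chr6:110874796-110874816, plus strand): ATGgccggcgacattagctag
AMD1 main start (chr6:110875097-110875117, plus strand): ctcacggtgATGgaagctgca
HSPA5 main start (chr9:125241115-125241135, minus strand): gctggcaagATGaagctctcc
The upstream frames of ATF4 shown hold 1 and 3 codons before a stop, and its last upstream ATG, at −97, opens a frame of 59 codons that runs past the main start. Those of PPP1R15A hold 22 and 26 codons, the ones shown for DDIT3 34 and 31, and that of AMD1 6. Both ATGs shown for DDIT3 lie in the same frame and end at the same stop. The last upstream ATG of DDIT3, at −32 and not shown, opens a frame of 73 codons that runs past the main start.

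ATF4, the transcription factor of the integrated stress response (chr22:39519695-39522685), had 984, 1048 and 1014 CPM in Input and 63.6, 68.6 and 66.2 CPM in RPF, a 13.2-fold low ratio (log2 −3.72 ± 0.06 SE). PPP1R15A, the stress-induced phosphatase subunit GADD34 (chr19:48872392-48876057), had 136, 170 and 170 CPM in Input and 9.18, 8.27 and 9.605 CPM in RPF, a 14.9-fold low ratio (log2 −3.90 ± 0.12 SE). DDIT3 (CHOP) had 25.4, 31.9 and 28.2 CPM in Input and 5.28, 5.84 and 5.93 CPM in RPF, a ratio of −2.12, although DDIT3 overlaps MARS1 and MBD6 on the opposite strand. IBTK was the remaining low gene at −1.12. The list as a whole was not low, with a median of −0.18 (library pairs −0.32 to 0.01). TRIB3, CEBPA, SLC7A1 and HSPA5 were high at 2.01, 2.52, 1.04 and 2.01. CEBPB (−0.50), IFRD1 (−0.35), ATF5 (−0.18), BACE1 (−0.68), EPRS1 (0.29), PPP1R15B (0.74) and UCHL5 (0.23) lay between, and ATF5 had overlapping values. The coding length offset turned BACE1 to 0.058 and EPRS1 to −0.83. Of the 15 annotated transcripts 11 hold an upstream ATG. These were not the low genes alone: CEBPA, the highest of the list, holds 1. Among the transcripts that hold none, HSPA5 was high while CEBPB and EPRS1 were neither high nor low. Footprints on the upstream frames themselves are part of the gene counts and could not be told apart from those on the main frame.

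Genes of polyamine metabolism, whose translation responds to polyamines at several steps, had a median of −0.43 (library pairs −0.51 to −0.35), with 4 of 10 low and 1 high. SAT1, the acetyltransferase that marks polyamines for export, had 711, 838 and 777 CPM in Input and 88.3, 94.3 and 87.9 CPM in RPF, a 7.35-fold low ratio (log2 −2.88). AMD1, which makes the aminopropyl donor, had 405, 392 and 390 CPM in Input and 57.7, 59.6 and 58.5 CPM in RPF, a 5.75-fold low ratio (log2 −2.52 ± 0.05 SE). SMS, spermine synthase, stood at −1.80 and AZIN1, the antizyme inhibitor, at −1.36. Spermidine synthase SRM was the 1 high gene at 1.22. ODC1, the first enzyme of the pathway, had 335, 304 and 296 CPM in Input and 269, 245 and 258 CPM in RPF, and at −0.02 its scaled groups overlapped. The antizymes OAZ1 and OAZ2, which are read through a programmed frameshift, stood at −0.62 and −0.24, and DHPS and SMOX at 0.76 and 0.61. The coding length offset gave a list median of −0.67 with 4 low and 0 high, and OAZ2, DHPS and SMOX turned to 0.31, −0.17 and −0.23.

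Selenoproteins, whose mRNAs have a UGA codon read as selenocysteine, had a median of 0.44 with 4 of 19 high and 3 low. TXNRD2 (2.73), MSRB1 (2.64), DIO1 (1.74) and GPX1 (1.11) were high. GPX3 (−2.01), GPX4 (−1.79) and SEPHS2 (−1.35) were low. GPX4, the lipid hydroperoxidase, had 681, 800 and 756 CPM in Input and 186, 181 and 181 CPM in RPF. SELENOP, the plasma selenium carrier and the most abundant, stood at −0.11 with 864 CPM in Input. The other 11, GPX2, TXNRD1 and SELENOF, H, I, K, N, O, S, T and W, lay between −0.87 and 0.81, and of these GPX2, SELENOI, SELENOK, SELENOO and SELENOT changed sign with the coding length offset.

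Splicing regulators differed by family. The 4 CLK kinases, which phosphorylate SR proteins and whose own transcripts are known to be partly held in the nucleus with introns, were all low: CLK1 (−2.93), CLK4 (−1.47), CLK2 (−1.11) and CLK3 (−1.05). CLK1 had 305, 306 and 315 CPM in Input and 33.4, 35.3 and 35.4 CPM in RPF. CLK2 and CLK3 lay close to the limit of −1, and with pseudogene counts added CLK2, at −0.996, was no longer called low. Of the 13 SR proteins 4 were high (SRSF2, SRSF7, TRA2A and SRSF3, from 1.004 to 1.22) and 2 low (SRSF11 at −2.42 and SRSF4 at −1.65). SRSF11 had 847, 762 and 840 CPM in Input and 131, 129 and 126 CPM in RPF. SRSF1 had overlapping values and a ratio near 0, and SRSF10 stood at −0.63, and with the coding length offset they moved to 1.62 and 1.44. SRSF5, SRSF6, SRSF8, SRSF9 and TRA2B lay between −0.64 and 0.92, and SRSF8, at −0.64, turned to 0.48. The median of the SR proteins was 0.61, and 1.44 with the offset. Heterogeneous nuclear ribonucleoproteins had a median of 0.32 with 4 of 24 high and 3 low. HNRNPA3 had 1187 CPM in Input and a ratio of −2.60, which became −0.88 with 16 pseudogenes added, HNRNPAB stood at 2.26 and HNRNPA2B1 at −0.23, which turned to 0.38 with the offset.

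Tubulins, whose mRNAs are degraded on ribosomes when free tubulin is abundant, had a median of 0.64 with 2 of 11 high and 0 low. The high ratio of TUBA1A, 5.71, came from 13.8, 12.6 and 13.9 CPM in Input against 592, 589 and 614 CPM in RPF. TUBA1A is nearly identical in coding sequence to TUBA1B (Input 765 CPM, ratio 0.61) and TUBA1C (Input 553 CPM, ratio 0.94) and lies opposite TUBA1C, so its footprints cannot be assigned with certainty. TUBB4B was the other high gene at 1.24, TUBA4A stood lowest at −0.43, and TUBB, TUBB2A, TUBB2B, TUBB3, TUBB6 and TUBG1 lay between 0.23 and 0.99. The median of the list turned to −0.09 with the coding length offset, with 1 high and 1 low, and TUBA1B to −0.35.

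Regulatory classes stood below the median. ZNF-named zinc finger genes, mostly transcriptional repressors of the KRAB family, had a median of −0.80 (library pairs −0.79 to −0.73), with 113 of 262 low (43.1%) and 7 high (2.67%). ZNF638 had 359, 388 and 375 CPM in Input and 69.6, 66.6 and 63.0 CPM in RPF, a ratio of −2.24, and ZNF146 stood at −2.64. ZNF704 was lowest at −4.53 and ZNF687 highest at 1.90. An upstream ATG was annotated in 58.8% of them, against 38.3% of all 10128 genes and 41.6% of all protein-coding genes. Immediate early genes, which encode short-lived growth factor responsive regulators, had a median of −0.57 (library pairs −0.75 to −0.51) with 10 of 24 low and 0 high. JUN had 428, 504 and 498 CPM in Input and 65.7, 64.4 and 62.4 CPM in RPF, the lowest ratio at −2.65, JUND stood at −1.52 and CCN2 highest at 0.93. Factors of nonsense-mediated decay and deadenylation had −0.52 with 12 of 32 low and 6 high. UPF3A had 236, 209 and 237 CPM in Input and 19.1, 18.2 and 17.4 CPM in RPF (log2 −3.39), SMG1 stood at −1.99, CNOT1 at 0.27 (−0.71 with the coding length offset) and SMG8 at 2.70. An upstream ATG was annotated in 20 of these 32, but in only 6 of the 24 immediate early genes, a share below that of all 10128 genes. A low list median therefore did not always go with a high share of upstream ATGs, and their part in these medians was not tested.

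Of the families defined by name alone, solute carriers had a median of 0.35 with 62 of 182 high (34.1%) and 20 low (10.99%), from SLC35B2 at 3.14 to SLC22A15 at −4.10, and 0.56 with the coding length offset. Kinesins had −0.13 with 5 of 26 high and 8 low, where KIF18B stood at 1.85, KIF5B at −1.01, KIF1C at −2.11 and KIF3C at −2.27, and with the offset −0.62 with 1 high and 11 low. Cytochromes P450, the oxidases of drug and sterol metabolism, had −0.01 with 3 of 13 high and 2 low, where CYP2W1 stood at 2.37, CYP27A1 at 1.41, CYP51A1 at 0.92 and CYP4F3 at −1.80, and a median of 0.01 with the offset. Small integral membrane proteins had −0.02 with 2 of 16 high and 4 low. Only 14.4% of their transcript is coding sequence at the median, and with the coding length offset their median was 1.17 with 11 high and 0 low. SMIM14 (−1.96) and SMIM15 (−1.56) changed direction with it, to 1.21 and 0.91, and SMIM26 stood at 2.38.

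Across all 10128 genes the ratio was lower where the annotated 5′ UTR was longer and held more ATGs. Genes with no upstream ATG (6250) had a median log2 ratio of 0.30, and those with 1, 2, 3, 4 and at least 5 had −0.22, −0.51, −0.67, −0.72 and −1.09. The share of low genes was 17.04% with none and 53.4% with at least 5 (479 genes). From the shortest quintile of 5′ UTRs (up to 51 bases) to the longest (at least 284 bases) the median went from 0.47 to −0.61. ATGs and length go together, so genes with and without an upstream ATG were compared within quintiles of 5′ UTR length. Those with at least 1 had the lower median in each quintile: 0.13 against 0.48 in the shortest, 0.18 against 0.42, −0.22 against 0.23, −0.45 against −0.00, and −0.71 against −0.19 in the longest. Within quintiles of Input level the medians with and without an upstream ATG were 0.09 and 0.77 in the lowest and −1.32 and −0.24 in the highest. The coding length offset kept the order, with 0.28 for no upstream ATG and −0.91 for at least 5. Spearman's rho with the number of upstream ATGs was −0.28 over 10128 genes, a description across genes that share the same libraries. A start codon with a purine at −3 and a guanine after it went with a slightly higher median, 0.09 against −0.10. The median 5′ UTR of these groups was 106 and 156 bases, and they were not compared within quintiles of length.

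**Figure D5:**
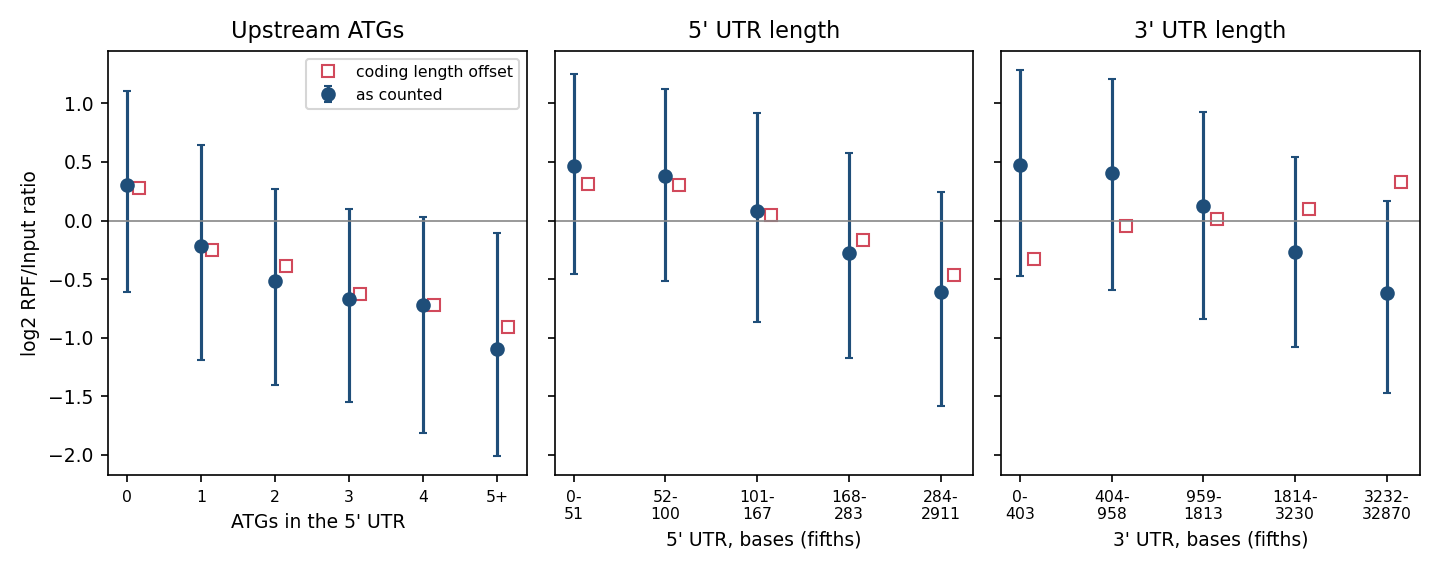
Median log2 RPF/Input ratio (filled points, bars are the interquartile range over genes) by number of upstream ATGs and by quintiles of 5′ and 3′ UTR length, with the medians under the coding length offset as open squares. The medians fall from 0.30 to −1.09 with upstream ATGs and from 0.47 to −0.61 with 5′ UTR length, and run the same way with the offset, while the order for 3′ UTR length turns around with it.

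Other properties depended on how length was treated. The median went from 0.48 in the shortest to −0.62 in the longest quintile of 3′ UTRs, but from −0.32 to 0.33 with the coding length offset. It went from −0.47 to 0.35 with the share of the transcript that is coding, and from 0.89 to −0.62 with the offset, which is built from that share. For GC content of the transcript the medians were −0.46 in the lowest and 0.40 in the highest quintile, and −0.02 and −0.09 with the offset. Longer proteins had lower medians under both, 0.09 and −0.32 as counted and 0.76 and −0.83 with the offset. The median was 0.55 in the lowest quintile of Input level and −0.61 in the highest. Input level is also the denominator of the ratio, so the 2 measures share its error. The total exon length of the gene model went with it, from 0.56 to −0.61.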

How the data were processed

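Ribosome-protected fragments and Input RNA of siControl HepG2 cells were compared, 3 libraries each, grouped by the sample labels; the 6 knockdown libraries were not used. Before deposit the authors had used cutadapt for trimming, STAR for alignment (hg38) and featureCounts for counting. The deposited tables hold estimated counts from featureCounts for each library, unscaled and partly fractional; options for shared or stranded reads and the preparation of Input RNA are not given in the sources used here. Values were rounded, which changed at most 0.0275% of a library's counts.

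Identifiers were matched without version to GENCODE release 44 (99.2% of 58721 matched), and transcript properties came from its canonical transcripts. RPF replicates 2 and 3 were summed. Counts were fitted with edgeR 4.0.16 (filterByExpr, TMM factors, robust quasi-likelihood, R 4.3.3) over 20517 genes, with Benjamini-Hochberg adjustment over all of them; RPF library sizes were then shifted so that the median of the 10128 genes was 0. High and low mean an adjusted p under 0.05 and a log2 ratio of at least 1 or at most −1. CPM are counts scaled to the library total. The study's methods name DESeq2 for translation efficiency; here it was an alternative (1.42.0). No molecular identifiers are named, and at 12513626 to 31510601 counts a library counting error is small for most genes, but not for the 54 with under 20 RPF counts in all.

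Genes and lists were chosen with earlier results of these data known. Named genes are the 10 highest and 10 lowest ratios of genes with a symbol, at least 20 CPM in Input and separated libraries; the highest, the lowest and the 2 most abundant of each list; all genes of 8 lists; cell type markers; and genes next to the 5 CPM minimum. Complexes within lists, RPLP0, MCM3 and the genes with whole-number counts were singled out after their values were seen. Alternatives were other scalings, filters, limma 3.58.1 (pseudocount 0.5 CPM), the replicate number as a block, the coding length offset, whole-number genes, and leaving out each library. The values of 1 listed gene are not reported here, though counts over lists include it.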

Additional observations from a re-analysis of the deposited data

How the results depend on the processing

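Of 211 named genes, 135 kept their direction and their call under all 18 alternatives that could be computed for them, and 176 did when the coding length offset was left aside. Counts of 2230 high and 2438 low genes became 2229 and 2443 with DESeq2, 1126 and 1909 with a minimum of 20 CPM in Input (16.6% and 28.1% of 6790 genes), and 384 and 445 with whole-number counts only (of 1832 genes). Without centring, the medians of ribosomal proteins, stress response mRNAs and ZNF genes were −1.13, −0.31 and −0.93 (RLE), −1.17, −0.35 and −0.97 (TMM) and −1.24, −0.41 and −1.04 (library totals). The coding length offset gave −1.23 for ribosomal proteins and −0.90 for ZNF genes. Pseudogene counts added (chosen after seeing the data) gave −0.18 for ribosomal proteins and −0.83 for ZNF genes. A minimum of 20 CPM gave −0.058 for stress response mRNAs and −1.30 for ZNF genes, and whole-number counts 0.18 (2 genes) and −0.47 (17 genes). With the offset SELENOK (1.18), SRSF1 (1.62), SRSF10 (1.44), CDK6 (0.51), MRPL42 (3.03), SMIM14 (1.21) and SMIM15 (0.91) changed direction and were called in at least 1 setting; the causes were not tested. The difference between the last and the first group of a property became −0.81 for exon length (from −1.17), −1.59 for protein length (−0.41), −0.92 for Input level (−1.17), −0.77 for 5′ UTR length (−1.07) and −1.19 for upstream ATGs (−1.40), and turned to −1.52 for coding share, −0.066 for GC and 0.66 for 3′ UTR length. Leaving out each library gave 2213 to 2240 high and 2436 to 2456 low genes, and medians of −1.03 to −0.96, −0.24 to −0.13 and −0.81 to −0.79 for the 3 lists; without RPF replicate 1 the lone RPF sample is assumed to vary like Input. Same-numbered Input and RPF libraries did not deviate together (r = 0.0227, 0.0130 and −0.000265 over 10128 genes). RPF replicates 2 and 3 differed by about sampling noise over these genes (mean chi-square per gene 1.09), which leaves little deviation to share. These values therefore cannot tell whether the numbers pair the libraries. With the replicate block the counts were 2222 and 2440 and the medians −0.997, −0.179 and −0.803.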

Other observations

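Most histone genes lay outside the genes described, under the Input minimum. Of the 62 listed replication-dependent histone genes, 58 were found in the tables and 55 had under 5 CPM in siControl Input (0 to 3.30 CPM), and 53 of these had at least 5 CPM in RPF, with a median of 216 CPM. Summed over the 55 genes the level was 30.2 CPM in Input and 16688 CPM in RPF. H1-4 had 2.53 CPM in Input and 1218 CPM in RPF, H3C10 3.05 and 939 CPM, and H4C3 1.24 and 693 CPM. H4C4 had 0 counts in each Input library and 435 CPM in RPF. Many of these genes are near-identical in coding sequence.

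In all, 627 protein-coding genes with a symbol had under 5 CPM in Input and at least 5 CPM in RPF. Outside the histones, the most abundant in RPF were GLUD2 (1.88 CPM in Input, 258 CPM in RPF), EIF5AL1 (0.487 and 180 CPM), EDARADD (0.246 and 157 CPM) and PZP (0.228 and 145 CPM), which were chosen after their values were seen. GLUD2 and EIF5AL1 are retrocopies of the expressed genes GLUD1 and EIF5A, EDARADD holds the pseudogene ENO1P1 on the same strand, and PZP is a paralogue of A2M. Whether reads of those genes were counted on them was not tested.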
